A study of Mus musculus with 6 samples.

Results

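Cells hold a set of enzymes that remove reactive oxygen species and keep glutathione and thioredoxin reduced. Of these, 10 were examined in mouse hematopoietic stem cells (HSCs) with and without the ribosomal protein Rpl22, namely *Sod1*, *Sod2*, *Cat*, *Gpx1*, *Gpx4*, *Gclc*, *Gclm*, *Gsr*, *Txnrd1* and *Prdx1*. They were picked out by gene symbol, and all 10 were found among the 34573 genes of the count table. All 10 also passed the filter on low counts, which left 14004 genes for testing.

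RNA was sequenced from HSCs sorted by flow cytometry from adult bone marrow. The labels give them as lineage-negative CD48- CD150+ cells, and the study defines its HSCs as Sca-1+ and c-Kit+ as well. The groups were 3 libraries labelled Rpl22 KO, from Rpl22-/- mice that lack the gene in every cell of the body, and 3 labelled Rpl22 WT, from Rpl22+/+ mice. The mice were young adults on a C57BL/6 background, and no further allele or treatment is given for either group. The labels do not say whether the 3 libraries of a genotype came from separate animals or from pools, so the p-values measure only the spread between these libraries, which may be in part technical.

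Superoxide, which leaks from the respiratory chain, is turned into hydrogen peroxide by the superoxide dismutases, *Sod1* in the cytosol and *Sod2* in the mitochondrial matrix. Hydrogen peroxide is then removed by catalase (*Cat*) in peroxisomes, by the glutathione peroxidases, which take electrons from glutathione, and by the peroxiredoxins, which take them from thioredoxin. Glutathione is made from glutamate, cysteine and glycine, and oxidized glutathione and thioredoxin are restored with NADPH. HSCs keep reactive oxygen species low, and in mice a rise in them is known to drive HSCs out of quiescence and to impair self-renewal.

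The libraries held between 9321123 and 13385850 counts on genes, and Rpl22 WT replicate 3 was the shallowest. Rpl22 itself was at 40.1 ± 4.59 CPM (counts scaled to a common library size) in Rpl22-/- HSCs and at 538 ± 20.7 in Rpl22+/+ HSCs (mean ± SD, n = 3). Markers of HSCs summed to 3678 to 3994 CPM in Rpl22-/- and 3712 to 3799 CPM in Rpl22+/+ libraries, with 15 of 15 detected. Of these, *Kit* was at 948 and 946 CPM, *Procr* at 53.9 and 56.7 CPM and *Slamf1*, which encodes CD150, at 56.1 and 45.6 CPM in Rpl22-/- and Rpl22+/+ HSCs (log2 fold change of *Slamf1* 0.30, adjusted p = 0.154). Of the 15 markers 2 were called in edgeR, *Gata2* as higher (0.39, adjusted p = 0.0190) and *Fgd5* as lower (-0.41, 0.0308).

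CPM here are counts scaled to a common size with TMM factors, which are set from the bulk of the genes. Fold changes are Rpl22-/- over Rpl22+/+. A gene was called when its adjusted p fell below 0.05, from the quasi-likelihood test of edgeR and the Benjamini-Hochberg method applied to all 14004 genes. By this rule 2 of the 10 enzymes were called, the glutathione peroxidases *Gpx1* and *Gpx4*, and both were higher in Rpl22-/- HSCs. Over all genes tested, 5.57% were called, 3.28% as higher and 2.29% as lower in Rpl22-/- HSCs. The median log2 fold change of the 10 enzymes was 0.08, against -0.01 for all genes tested. The estimate was above 0 for 9 enzymes and below 0 for 1, *Prdx1*, whereas 48.7% of all genes tested lay above 0. With library size alone in place of TMM, 6 enzymes were above 0 and 4 below. The CPM of the genotypes did not overlap for 3 enzymes, *Gpx1*, *Gpx4* and *Sod1*, and 26.9% of all genes tested showed no overlap. In bulk libraries like these, a change in the number of cells that express a gene and a change in its RNA per cell cannot be told apart.

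**Figure D1:**
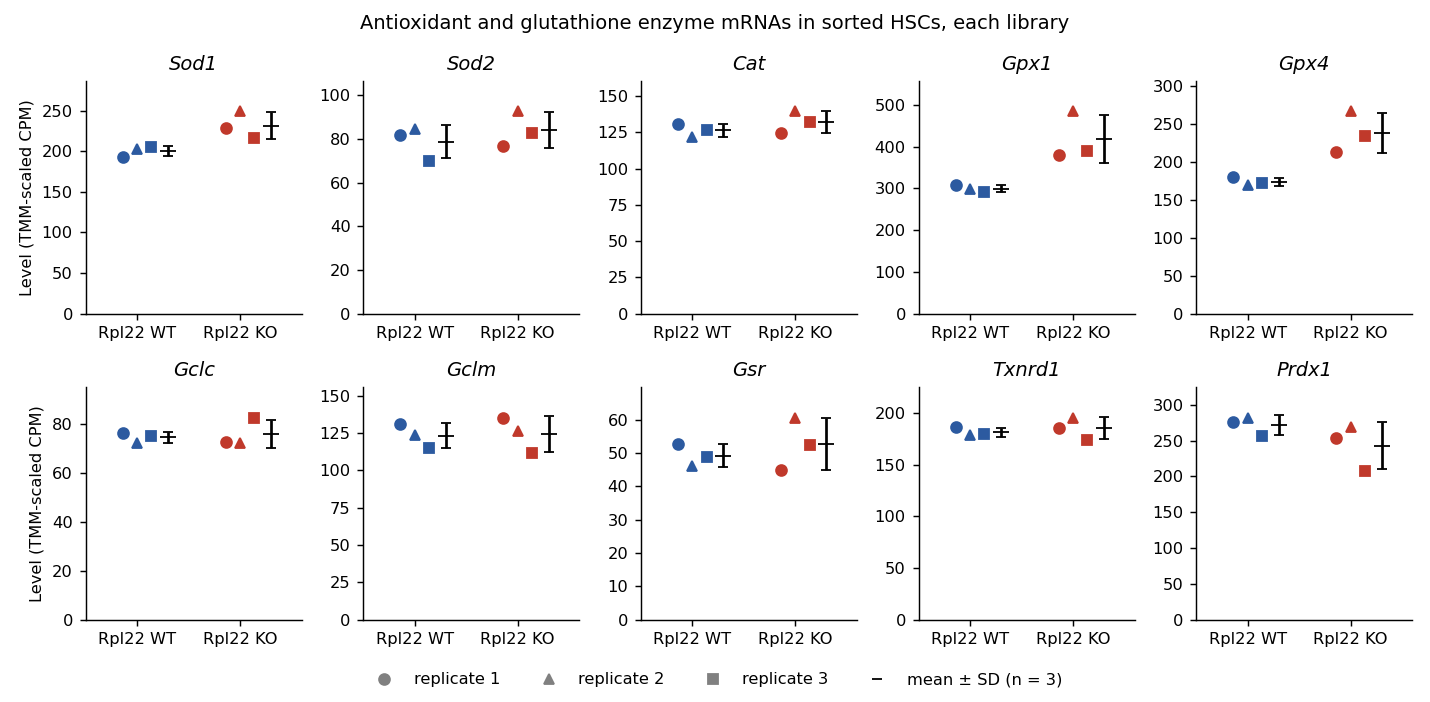
CPM (TMM-scaled, linear axis starting at 0) of the 10 enzymes in each of the 3 Rpl22-/- and 3 Rpl22+/+ libraries, with 1 point per library (shape gives the replicate) and, beside them, the mean ± SD. The Rpl22-/- libraries lie above every Rpl22+/+ library for *Gpx1*, *Gpx4* and *Sod1*, and the points overlap for the other 7 enzymes.

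In the plot of CPM by library each enzyme has its own scale, and levels are to be compared between genotypes within a panel, not between panels, since longer transcripts give more reads.

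*Gpx1* encodes the main cytosolic glutathione peroxidase, a selenoprotein that reduces hydrogen peroxide with glutathione. It lies on chromosome 9 (GRCm38, 108338903 to 108340343, plus strand). Replicates 1 to 3 held 4884, 5819 and 5133 counts in Rpl22-/- HSCs and 4003, 3715 and 2803 in Rpl22+/+ HSCs. As CPM these were 381, 484 and 390 against 307.5, 298 and 292. All 3 Rpl22-/- libraries were above all 3 Rpl22+/+ libraries, and Rpl22-/- replicate 2 was well above the other two Rpl22-/- libraries. The mean was 418 ± 57.4 against 299 ± 7.97 CPM (SD, n = 3), or a log2 difference of 0.48 (SE 0.0993, 95% interval 0.27 to 0.69), 1.40-fold, with an adjusted p of 0.0133. By p-value *Gpx1* ranked 190 of 14004 genes, and 94.5% of genes had a smaller or more negative log2 fold change.

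*Gpx4* encodes the glutathione peroxidase that reduces lipid hydroperoxides within membranes, a selenoprotein best known as the enzyme that holds back ferroptosis. It lies on chromosome 10 (80047166 to 80056439, plus strand). Its counts were 2742, 3205 and 3083 in Rpl22-/- and 2341, 2119 and 1656 in Rpl22+/+ libraries, which gave 214, 267 and 234 against 180, 170 and 172 CPM. Again the genotypes did not overlap, and again Rpl22-/- replicate 2 was the highest. The mean was 238 ± 26.8 against 174 ± 5.11 CPM (SD, n = 3), or a log2 difference of 0.45 (SE 0.0923, 95% interval 0.26 to 0.65), 1.37-fold, and an adjusted p of 0.0131. The reads of *Gpx4* may be shared with 2 near copies in the annotation, of which the closer, *Gpx4-ps2*, is 99.7% identical over 762 bases, and neither is a gene of the count table.

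The ratio of *Gpx4* to *Gpx1* within a library does not depend on scaling between libraries. It was 0.561, 0.551 and 0.601 in Rpl22-/- HSCs and 0.585, 0.570 and 0.591 in Rpl22+/+ HSCs. The log2 ratio differed between genotypes by -0.03, and the libraries overlapped (two-sided exact permutation test p = 0.6, with 0.1 the smallest that 3 against 3 can give; over the 5 ratios compared, adjusted p ran from 0.875 to 1). Over leaving out each library in turn this difference ran from -0.07 to -0.003.

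Because *Gpx1* and *Gpx4* were the 2 enzymes called, the promoter of each is printed here from RefSeq (GRCm38.p6, 250 bases before to 50 after the start site, plus strand). Capitals mark CCAAT boxes (CCAAT) and GC boxes (GGGCGG), each searched on both strands, where ATTGG and CCGCCC are the same letters read from the other strand. *Gpx1* (chr9:108338830-108339129) held 0 CCAAT boxes and 1 GC box. *Gpx4* (chr10:80053315-80053614), for which RefSeq lists 4 promoters and the one nearest the principal transcript is shown, held 3 CCAAT boxes and 2 GC boxes.
Gpx1: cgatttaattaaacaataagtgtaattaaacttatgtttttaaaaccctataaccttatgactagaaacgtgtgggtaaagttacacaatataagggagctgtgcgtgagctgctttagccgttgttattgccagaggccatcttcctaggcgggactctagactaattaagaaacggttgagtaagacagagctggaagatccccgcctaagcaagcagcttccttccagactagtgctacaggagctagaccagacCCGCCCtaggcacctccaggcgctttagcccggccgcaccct
Gpx4: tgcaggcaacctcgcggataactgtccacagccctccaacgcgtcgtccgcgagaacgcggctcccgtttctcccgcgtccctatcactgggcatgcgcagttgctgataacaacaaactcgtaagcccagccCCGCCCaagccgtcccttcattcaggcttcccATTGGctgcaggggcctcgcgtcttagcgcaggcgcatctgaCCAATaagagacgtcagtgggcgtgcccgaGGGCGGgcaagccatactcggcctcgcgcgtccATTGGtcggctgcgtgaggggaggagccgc
A CCAAT box was present in 37.4% and a GC box in 35.7% of the 32851 mouse promoters of this length. Of these 2 promoters, both held a GC box and that of *Gpx4* alone held a CCAAT box. Neither motif was particular to them. The promoters nearest the principal transcripts of *Sod1*, *Sod2*, *Cat*, *Gclm*, *Txnrd1* and *Prdx1*, none of which was called, also held GC boxes. Among those enzymes, *Prdx1* alone lacked a CCAAT box.

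The calls of *Gpx1* and *Gpx4* held under most but not all of 19 alternative settings. *Gpx1* was called in 14 and *Gpx4* in 13, and both were higher in Rpl22-/- HSCs in all 19, with log2 fold changes of 0.32 to 0.55 and 0.28 to 0.53. Without Rpl22+/+ replicate 1, 2 or 3 the adjusted p of *Gpx1* was 0.0578, 0.0593 and 0.0624 while its log2 fold change was 0.50, 0.48 and 0.47. *Gpx4* was likewise not called without any of the Rpl22+/+ replicates (adjusted p = 0.0551, 0.0657 and 0.0555) or without Rpl22-/- replicate 3 (0.0580).

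Fold changes over all genes moved with base composition and length in these libraries. With the genes in 5 bins of equal size, median log2 fold changes ran from -0.13 at the lowest GC content (median 41.3%) to 0.08 at the highest (57.7%), and from 0.09 for the shortest principal transcripts (median 962 bases) to -0.08 for the longest (6344 bases). *Gpx1*, at 57.2% GC and 1072 bases, and *Gpx4*, at 60.2% GC and 959 bases, lie at the end of both trends where genes were higher. With each library's GC trend removed the log2 fold changes were 0.41 for *Gpx1* (adjusted p = 0.0348) and 0.36 for *Gpx4* (0.0451). With the trends on GC and on principal transcript length removed together, an alternative chosen after seeing the data, they were 0.34 (0.0585) and 0.28 (0.0964), and neither was called.

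**Figure D2:**
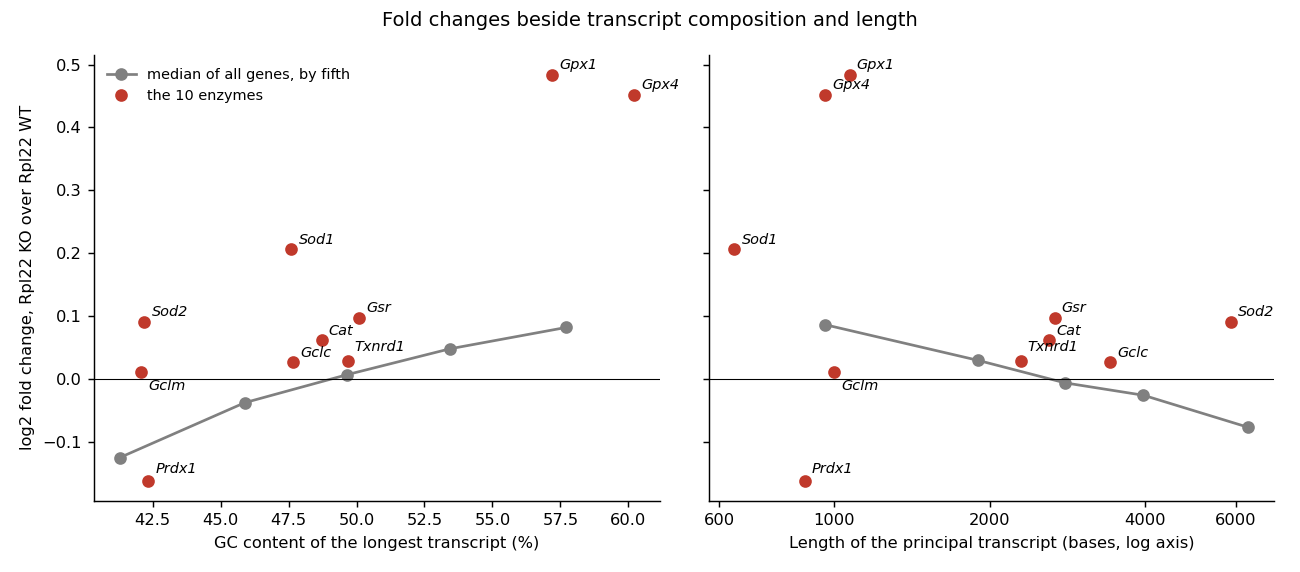
Log2 fold change (Rpl22-/- over Rpl22+/+) of the 10 enzymes against GC content in percent (left) and principal transcript length in bases on a log axis (right), with a grey line through the medians of all genes tested in each of 5 equal bins of the property. GC content is that of the longest transcript. The medians rise with GC content and fall with length, and *Gpx1* and *Gpx4* lie above the grey line at its higher end.

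In the plot of fold change against composition, *Sod1* and *Prdx1* also have short principal transcripts (641 and 877 bases). The GC content given for them, 47.6% and 42.3%, is that of longer transcripts (3970 and 2294 bases). GC content of their principal transcripts was not computed. The log2 fold changes of *Sod1* and *Prdx1*, 0.21 and -0.16, fall on either side of the medians for short transcripts.

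*Sod1* encodes the cytosolic copper and zinc superoxide dismutase and lies on chromosome 16 (90220754 to 90226329, plus strand). Its counts were 2931, 2991 and 2849 in Rpl22-/- and 2517, 2520 and 1977 in Rpl22+/+ libraries. Those counts gave 228, 249 and 216 against 193, 202 and 206 CPM, so that every Rpl22-/- library was above every Rpl22+/+ library by this measure. The log2 fold change was 0.21 (SE 0.0849, 95% interval 0.03 to 0.39), which did not pass the threshold (adjusted p = 0.163 in edgeR). Over the alternatives it lay between 0.11 and 0.25, and *Sod1* was called in 0 of 19. A processed pseudogene that is 97.8% identical to *Sod1* over 465 bases, *Gm8566*, had 0 counts in every library.

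*Sod2*, the manganese enzyme of the mitochondrial matrix (chromosome 17, 13006846 to 13040063, plus strand), was at 76.5, 92.6 and 82.9 CPM in Rpl22-/- and at 81.9, 84.3 and 69.9 CPM in Rpl22+/+ libraries. The genotypes overlapped, and the log2 difference was 0.09 (95% interval -0.12 to 0.30, adjusted p = 0.634). Within libraries the log2 ratio of *Sod2* to *Sod1* differed between genotypes by -0.11, and the libraries overlapped (two-sided exact permutation test p = 0.4, adjusted over 5 ratios 0.875).

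*Cat* encodes catalase, which splits hydrogen peroxide into water and oxygen without a donor of electrons, and lies on chromosome 2 (103453849 to 103485160, minus strand). It was at 125, 139.5 and 132 CPM in Rpl22-/- and at 131, 122 and 127 CPM in Rpl22+/+ libraries. Its log2 fold change was 0.06 (95% interval -0.11 to 0.24, adjusted p = 0.710), and the libraries of the genotypes overlapped.

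*Prdx1* encodes a cytosolic peroxiredoxin that reduces hydrogen peroxide with electrons from thioredoxin (chromosome 4, 116685544 to 116700822, plus strand). Its counts were 3254, 3231 and 2725 in Rpl22-/- and 3598, 3517 and 2469 in Rpl22+/+ libraries, or 254, 269 and 207 against 276, 282 and 257 CPM. It was the 1 enzyme with an estimate below 0 (log2 fold change -0.16, SE 0.0997, 95% interval -0.37 to 0.05, adjusted p = 0.363), and it stayed below 0 in all 19 alternatives, from -0.25 to -0.06, without a call. The genotypes overlapped through Rpl22-/- replicate 2 and Rpl22+/+ replicate 3. With library size alone in place of TMM they did not, with 255, 259 and 204 CPM against 278, 284 and 265 CPM. The log2 ratio of *Cat* to *Prdx1* within libraries differed between genotypes by 0.23, with SDs of 0.20 in Rpl22-/- and 0.10 in Rpl22+/+ HSCs, and the libraries overlapped (two-sided exact permutation test p = 0.2, adjusted over 5 ratios 0.875). Of the copies of *Prdx1* in the annotation, *Gm7204* is 97.5% identical and had 0 counts in every library, and *Gm21399*, 98.3% identical, is not a gene of the count table.

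Glutamate-cysteine ligase, the rate-limiting enzyme of glutathione synthesis, is made of a catalytic subunit (*Gclc*) and a modifier subunit (*Gclm*). *Gclc* lies on chromosome 9 (77754535 to 77794485, plus strand) and *Gclm* on chromosome 3 (122245557 to 122270732, plus strand). *Gclc* was at 72.6, 72.3 and 82.6 CPM in Rpl22-/- and at 76.2, 72.1 and 75.1 CPM in Rpl22+/+ libraries. *Gclm* was at 135, 126 and 111 CPM against 131, 124 and 115 CPM. The libraries of the genotypes overlapped for both subunits. Their log2 fold changes were 0.03 (95% interval -0.16 to 0.21, adjusted p = 0.893) and 0.01 (-0.18 to 0.21, 0.958). Both intervals lay within 1.2-fold in either direction. The within-library log2 ratio of *Gclm* to *Gclc* differed between genotypes by -0.01 (two-sided exact permutation test p = 1). Exons of *Gclm* overlap *Gm17494* on the opposite strand, over 4.71% of their length, and *Gm6061* on the same strand, over 3.88%, and reads there may be shared or left out.

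*Gsr* encodes glutathione reductase, which restores glutathione with NADPH (chromosome 8, 33652523 to 33698163, plus strand). It was at 45.0, 60.7 and 52.6 CPM in Rpl22-/- and at 52.8, 46.2 and 48.9 CPM in Rpl22+/+ libraries, and its log2 difference was 0.10 (95% interval -0.14 to 0.34, adjusted p = 0.661). *Txnrd1* encodes the cytosolic thioredoxin reductase, a selenoprotein (chromosome 10, 82833951 to 82897712, plus strand). It was at 186, 196 and 174 CPM against 187, 179 and 179 CPM, and its log2 difference was 0.03 (95% interval -0.14 to 0.20, adjusted p = 0.874). Neither reductase separated the genotypes, and the ratio of *Txnrd1* to *Gsr* differed between them by -0.06 on the log2 scale (two-sided exact permutation test p = 0.7). Of the 3 selenoproteins among the 10 enzymes, therefore, *Gpx1* and *Gpx4* were called and *Txnrd1* was not.

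**Figure D3:**
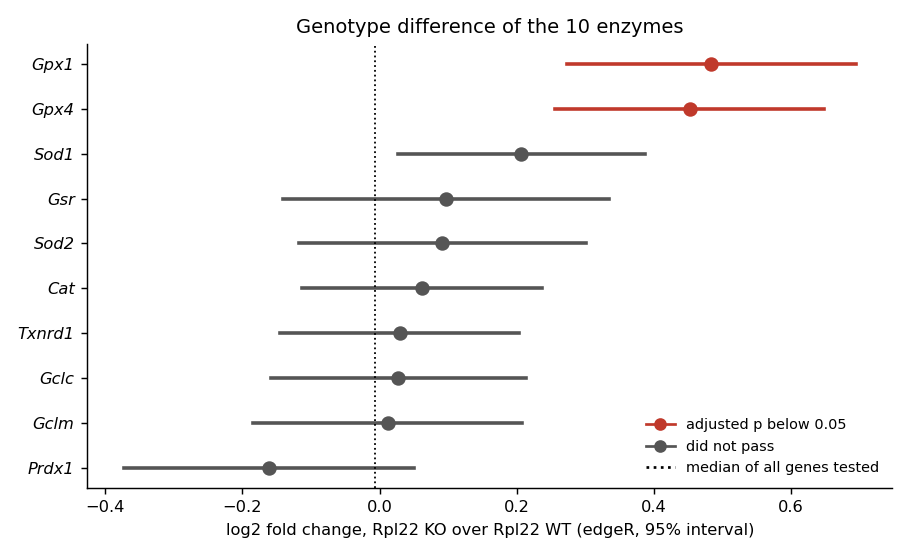
Log2 fold change (Rpl22-/- over Rpl22+/+, horizontal axis) of each enzyme, with lines for the 95% interval, red where the adjusted p was below 0.05 and grey where it was not, and a dotted line at the median of all genes tested (-0.01). The intervals of *Gpx1* (0.27 to 0.69), *Gpx4* (0.26 to 0.65) and *Sod1* (0.03 to 0.39) lie above 0, and the other 7 span it.

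The plot of fold changes with intervals also shows how large a difference the data allow for the enzymes not called. For all 8 of them the 95% interval lay within 1.5-fold in either direction, and for 4 it lay within 1.2-fold. A small difference in any of the 8 may have gone uncalled with 3 libraries per genotype. The interval of *Sod1*, 1 of the 8, was 0.03 to 0.39, yet it did not pass after adjustment over all genes (adjusted p = 0.163 in edgeR).

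**Figure D4:**
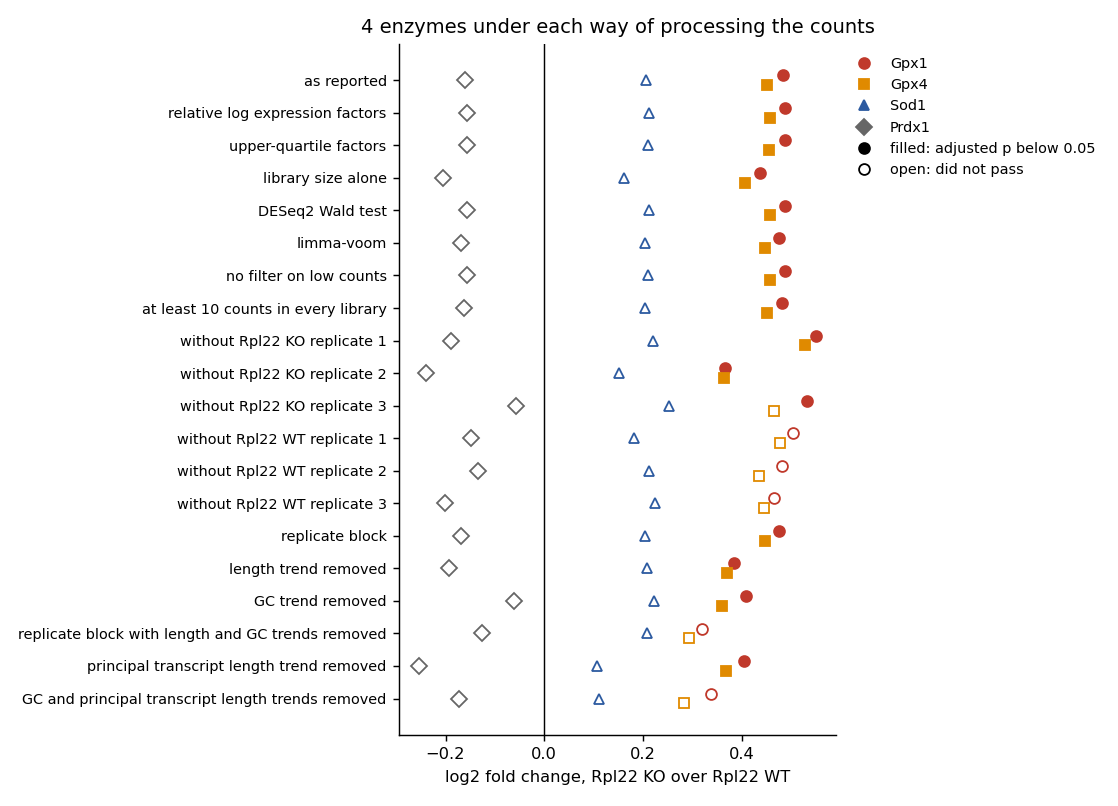
Log2 fold change (Rpl22-/- over Rpl22+/+, horizontal axis) of *Gpx1*, *Gpx4*, *Sod1* and *Prdx1* as reported and under each of 19 alternative settings (vertical axis), with filled symbols where the adjusted p was below 0.05 and open ones where it was not. *Gpx1* and *Gpx4* lie between 0.28 and 0.55 and turn open in 5 and 6 of the settings, *Sod1* lies between 0.11 and 0.25, and *Prdx1* lies between -0.25 and -0.06.

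The plot of alternatives shows that the direction of these 4 enzymes was the same throughout, while the call of the peroxidases was not. *Sod2* and *Cat* were above 0 in all 19 alternatives too. *Gclc*, *Gclm*, *Gsr* and *Txnrd1* were above 0 in 17, 15, 18 and 16 of them, so no direction is given for these 4.

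The spread between libraries differed between the genotypes. The coefficient of variation of the CPM was higher in Rpl22-/- than in Rpl22+/+ libraries for 9 of the 10 enzymes, against 62.1% of all genes tested, and *Sod2* was the exception with 9.60% against 9.78%. For *Gpx1* it was 13.7% against 2.66%. Rpl22-/- replicate 2 was the highest of its genotype for 8 of the 10 enzymes and for 34.8% of all genes tested. Of 12 neutrophil and monocyte markers tested, 10 had an estimate above 0 (median of the 12 0.97) and 2 were called, both higher, *Ctsg* (adjusted p = 0.0282) and *Camp* (0.0291). Replicate 2 held the most counts of *Ctsg* in Rpl22-/- HSCs, 163 against 28 and 48, with 1, 10 and 19 in Rpl22+/+ HSCs. It also held the most of *Mpo*, another granule gene, named after its values were seen. *Mpo* had 1218 counts there against 178 and 225, and 19, 72 and 197 in Rpl22+/+ HSCs. It was not called in edgeR (adjusted p = 0.0642). *Camp* was highest in Rpl22-/- replicate 3, with 11, 31 and 47 counts against 10, 2 and 3. The log2 fold changes of *Lyz2* (209 against 193 CPM) and *Prtn3* (66.9 against 63.4 CPM) were 0.12 and 0.08. Those of *S100a8* and *Itgam* were -0.21 and -0.15. DESeq2 and limma-voom each called 1 marker of this list. The markers of this list summed to 470 CPM in Rpl22-/- replicate 2, 299 and 358.5 CPM in the other Rpl22-/- libraries and 284 to 327 CPM in Rpl22+/+ libraries. Without Rpl22-/- replicate 2 the log2 fold changes were 0.37 for *Gpx1* (adjusted p = 0.0332) and 0.36 for *Gpx4* (0.0363), and both were still called.

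Markers of other lineages are given in the same way. Megakaryocyte markers summed to 942 to 1135 CPM in Rpl22-/- and 635 to 833 CPM in Rpl22+/+ libraries. *Itga2b* gave the largest part of these sums, with means of 579 and 407 CPM. Of the megakaryocyte markers, 7 of 9 tested were called higher, while *Gp6* was at 0 in all libraries. Erythroid markers summed to 80.4 to 95.5 against 104 to 127 CPM, and 2 of 5 tested were called lower, *Tfrc*, which makes up most of that sum, and *Car1*, while *Epor* had an estimate above 0 (0.24, adjusted p = 0.281). B cell markers summed to 27.1 to 29.6 against 23.2 to 25.2 CPM with *Ms4a1* and *Igll1* at 0, and T cell markers summed to 52.9 to 57.6 against 58.9 to 70.9 CPM with *Cd3e* at 0. Most of the B cell sums came from *Cd79b* (means of 25.9 and 21.2 CPM), while *Vpreb1* had an estimate below 0 (-0.17). The largest part of the T cell sums came from *Cd247* (33.3 and 40.6 CPM). Of the 4 T cell markers tested, 3 had estimates below 0 and 1, *Lck*, above (0.34). Of the 2 B cell and 4 T cell markers tested, 0 were called in edgeR, DESeq2 or limma-voom, and 1 and 0 had an unadjusted p below 0.05. These sums cannot tell cells of other lineages from HSCs that express the markers. The part of either in the differences of *Gpx1* and *Gpx4* was not tested.

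Levels of the 10 enzymes can be compared with each other per kilobase of transcript. In Rpl22+/+ HSCs, with all annotated exons of a gene as its length, *Gpx1* was the highest at 208 ± 5.53 CPM per kb, followed by *Gpx4* at 101 ± 2.96, *Prdx1* at 89.3 ± 4.37, *Sod1* at 50.5 ± 1.61 and *Cat* at 48.4 ± 1.74 (SD, n = 3). *Txnrd1* was at 25.6 ± 0.631, *Gclc* at 19.8 ± 0.568, *Gclm* at 19.6 ± 1.33, *Gsr* at 17.9 ± 1.21 and *Sod2* was the lowest at 7.86 ± 0.769. The ranges of mean ± SD overlapped between *Sod1* and *Cat*, *Gclc* and *Gclm*, and *Gclm* and *Gsr*, and not between the other neighbours in this order. With the principal transcript as the length, *Sod1* at 313 ± 9.94 and *Prdx1* at 310 ± 15.2 came first with overlapping ranges of mean ± SD, followed by *Gpx1* at 279 ± 7.44 and *Gpx4* at 182 ± 5.33 CPM per kb, and *Sod2* stayed the lowest at 13.4 ± 1.31. The order of the peroxidases, *Sod1* and *Prdx1* therefore depends on the length used.

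Many antioxidant enzymes are targets of NRF2 (*Nfe2l2*), a transcription factor that binds the antioxidant response element when oxidants or electrophiles release it from its inhibitor KEAP1. The core of that element (TGACNNNGC, searched on both strands) was looked for in the RefSeq promoters of the 10 enzymes (GRCm38.p6). RefSeq promoters were found for 8 of them, 13 in all, and not for *Gclc* and *Gsr*. The core was present in 4 of the 13, in 1 promoter each of *Sod1*, *Gclm*, *Txnrd1* (which has 3) and *Prdx1*, and in 12.4% of all 32851 promoters. It was absent from the windows of *Gpx1*, *Gpx4*, *Sod2* and *Cat*. The 4 matches are printed with 16 bases on either side because they show which of the enzymes share these letters, with the match in capitals, as read on the plus strand, where all 4 cores lie reversed. Their positions are chr16:90220690-90220730 for *Sod1*, chr3:122245407-122245447 for *Gclm*, chr10:82859098-82859138 for *Txnrd1* and chr4:116685450-116685490 for *Prdx1*.
Sod1: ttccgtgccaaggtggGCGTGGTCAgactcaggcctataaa
Gclm: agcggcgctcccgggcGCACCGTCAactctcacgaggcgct
Txnrd1: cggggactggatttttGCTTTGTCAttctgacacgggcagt
Prdx1: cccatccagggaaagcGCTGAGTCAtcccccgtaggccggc
The 4 enzymes with the core had log2 fold changes of 0.21, 0.01, 0.03 and -0.16 and none was called. Of the 4 without it in these windows, *Gpx1* and *Gpx4* were called and *Sod2* and *Cat* were not. Each window spans 300 bases, so cores further away were not searched for. The start site of the *Prdx1* window lies 288 bases from that of its principal transcript. A link between the core and the fold changes was not tested.

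Of the regulators of this pathway, *Nfe2l2*, *Keap1* and *Bach1* did not pass the threshold in edgeR. The log2 fold change was 0.27 for *Nfe2l2* (adjusted p = 0.0940) and 0.33 for *Keap1* (0.0513), while for *Bach1*, a repressor of the same elements, it was -0.19 (0.312). *Keap1* lay near the threshold and was called in 9 of 19 alternatives, DESeq2 among them (adjusted p = 0.0313), with adjusted p from 0.00866 to 0.205. Among classical targets, *Nqo1* had -0.14 (0.636) and *Hmox1* 0.42 (0.394). Of 33 regulators and targets tested, which include 5 of the 10 enzymes, 1 was called in edgeR and it was higher, *Fth1*, the ferritin heavy chain that stores iron (592 ± 32.2 against 475 ± 11.2 CPM, SD, n = 3; log2 fold change 0.32, adjusted p = 0.0445). The median log2 fold change of the list was 0.11.

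The other lists of the pathway gave few calls. Over 9 lists, without repeats and without the 10 enzymes, 135 of 153 genes in the table were tested and 6 were called, 4 higher and 2 lower, which is 4.44% against 5.57% of all genes tested, and the median log2 fold change was 0.07. With library size alone in place of TMM, which moved the median of all genes from -0.01 to -0.05, the medians of 3 lists turned negative, glutathione supply (-0.02), selenoprotein synthesis (-0.01) and other selenoproteins (-0.02). The genes called included *Pgls*, *Fth1*, *Sesn3*, *Scly* and *Cyba*, and each of these was called in between 8 and 17 of 19 alternatives.

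Among 25 other superoxide, peroxide and thioredoxin enzymes, 0 were called in edgeR, DESeq2 or limma-voom, and 3 had an unadjusted p below 0.05. The median log2 fold change was 0.06. The smallest p-values belonged to *Prdx5*, a mitochondrial and peroxisomal peroxiredoxin (0.22, adjusted p = 0.151), and *Txn2*, mitochondrial thioredoxin (0.24, 0.164).

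Among 16 genes of glutathione supply and turnover, the median log2 fold change was 0.02. Among 19 glutathione transferases, 0 were called in edgeR, DESeq2 or limma-voom, and 2 had an unadjusted p below 0.05, *Mgst1* (-0.61, adjusted p = 0.167) and *Mgst3* (0.55, 0.178), both expressed at under 10 CPM in every library. The median of the transferases was 0.09.

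NADPH is the source of electrons for *Gsr* and *Txnrd1*, and 16 genes that supply it were tested. The genotypes did not overlap for 10 of these, against 26.9% of all genes, and the median log2 fold change was 0.13. Of the 10, 7 had a positive and 3 a negative fold change. The 1 gene called was *Pgls*, the 6-phosphogluconolactonase of the oxidative pentose phosphate pathway (72.7 ± 2.65 against 52.6 ± 3.72 CPM, SD, n = 3; log2 fold change 0.47, adjusted p = 0.0103). Other enzymes of the pentose phosphate pathway, named after their values were seen, had 0.24 (*G6pdx*), 0.24 (*Pgd*), 0.22 (*Taldo1*), 0.23 (*Tkt*) and -0.22 (*H6pd*, of the endoplasmic reticulum), with adjusted p of 0.148, 0.149, 0.157, 0.168 and 0.174. *Nnt*, the mitochondrial transhydrogenase, had -0.17 (0.225).

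Selenoproteins need their own machinery, which places selenocysteine in *Gpx1*, *Gpx4* and *Txnrd1*. Of 10 genes for it, 1 was called, *Scly*, the lyase that recovers selenium (55.1 ± 3.37 against 43.4 ± 1.46 CPM, SD, n = 3; log2 fold change 0.35, adjusted p = 0.0436). Of 15 other selenoproteins, 0 were called in edgeR, DESeq2 or limma-voom and 1 had an unadjusted p below 0.05, with *Selm* at 0.41 (adjusted p = 0.137) and *2700094K13Rik* at -0.26 (0.239). The medians of these lists were 0.04 and 0.02. Their highest log2 fold changes were 0.40 and 0.41, neither called in edgeR, beside 0.48 and 0.45 for *Gpx1* and *Gpx4*.

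FoxO transcription factors protect HSCs from oxidants, and sestrins also take part in oxidant defence. The list tested held 11 genes, namely 3 FoxO factors, 3 sestrins and 5 other regulators of oxidant defence (*Atm*, *Sirt1*, *Sirt3*, *Ppargc1a* and *Ppargc1b*). Of these 1 was called, *Sesn3* (22.4 ± 2.04 against 30.6 ± 2.26 CPM, SD, n = 3; log2 fold change -0.44, adjusted p = 0.0459), and *Foxo3* had -0.08 (0.641). The median of all 11 was -0.21 and remained below 0 in all 19 alternatives. NADPH oxidases make superoxide, the substrate of the dismutases. Of 11 of their subunits 1 was called in edgeR, *Cyba* (56.3 ± 7.93 against 39.6 ± 2.33 CPM, SD, n = 3; log2 fold change 0.51, adjusted p = 0.0179). The estimates of the 11 subunits went both ways, with 7 above 0 and 4 below, from -1.05 to 0.51. DESeq2 called 2 of them. *Trp53*, which controls several antioxidant genes, had 0.25 (0.104).

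**Figure D5:**
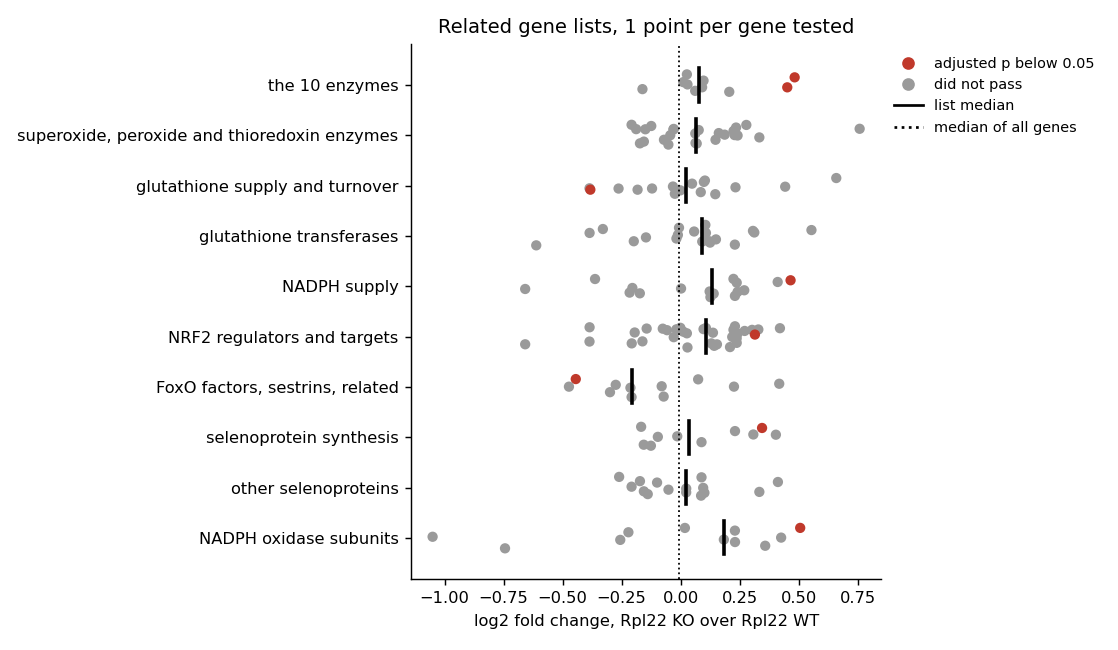
Log2 fold change (Rpl22-/- over Rpl22+/+, horizontal axis) of the genes tested in each list (1 row per list), with a point per gene, red where the adjusted p was below 0.05 and grey where it was not, a black bar at the list's median and a dotted line at the median of all genes tested (-0.01). By edgeR, the 10 enzymes hold 2 red points and no other list holds more than 1.

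The plot of lists shows the single genes behind each median. Its calls are those of edgeR, and 2 calls in a list were not particular to the 10 enzymes with DESeq2. That test called 2 of the 10 enzymes, 3 NRF2 regulators and targets, 2 genes of selenoprotein synthesis and 2 NADPH oxidase subunits. Medians of the lists other than that of FoxO factors, sestrins and related regulators lay between 0.02 and 0.18.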

How the data were processed

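RNA from 3 Rpl22-/- and 3 Rpl22+/+ samples of sorted HSCs was sequenced after polyA selection, 1 library per sample. The authors aligned the reads to mm10 with TopHat2 2.1.1 and deposited whole-number counts per gene from HTSeq, not normalized. The annotation and the strand setting are not given in the sources used here. The last 5 lines of the table, reads not assigned to a gene (58.6% to 60.9% of each library), entered neither library sizes nor tests, and reads that did not align uniquely were among them. Per-sample columns not used numbered 0.

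From those counts, edgeR 4.0.16 (R 4.3.3) kept 14004 genes by filterByExpr (minimum count 10), scaled them by TMM and compared the genotypes by the quasi-likelihood test with no covariate, and p-values were adjusted over all genes by the Benjamini-Hochberg method. The standard error is the size of the log2 fold change divided by the root of its F statistic, and 95% intervals use the fit's degrees of freedom. The study's own tool, DESeq2 (1.42.0), was run as an alternative, as was limma-voom (limma 3.58.1). Ratios within a library were compared by the two-sided exact permutation test. The statistics were tested on simulated counts with 200 changed genes. Depth of 9321123 to 13385850 counts on genes gives each enzyme 470 to 5819 counts per library. From the mean count of each genotype, the counting error is 1.38% to 4.16% of the level. The coefficient of variation between libraries is 2.46% to 14.8%.

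Positions, lengths and GC content came from GENCODE on GRCm38 (mm10), where 29093 symbols matched directly and 1849 through an older symbol. Promoters came from RefSeq (GRCm38.p6). Length trends used the length of all exons or of the principal transcript, and each library's trend was removed by lowess (span 0.3) over 13355 genes. Near copies were found with BLAST 2.17.0.

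The 10 enzymes and all lists were chosen with earlier results of these data known. Genes named are the 10 enzymes, Rpl22, every gene called in a related list (at most 6 per list) or, where none was, the 2 with the smallest p, and *Nfe2l2*, *Keap1*, *Bach1*, *Nqo1*, *Hmox1*, *Nnt*, *Foxo3* and *Trp53*. Some results within this rule are not reported here. Marker lists are given as sums, naming *Slamf1*, *Kit*, *Procr* and markers at 0. Genes named outside this rule, after their values were seen, are *Mpo*, the other single markers given beside the sums, the pentose phosphate enzymes and the near copies and overlapping genes. The alternatives were other scaling factors, DESeq2, limma-voom, other filters, leaving out each library, a replicate block, and removal of length or GC trends. Protein sequences were not used here.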

Additional observations from a re-analysis of the deposited data

How the results depend on the processing

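Of 19 alternatives, 2 that use principal transcript length were chosen after seeing the data. The labels do not say whether same-numbered libraries were prepared together. Correlations of same-numbered deviations were -0.1, 0.0506 and 0.0446, and those of other pairs ran from -0.164 to 0.126. They cannot decide on pairing, since deviations within a genotype are not independent of each other. The replicate block gave 904 calls over all genes against 780 without it and called the same number of the 10 enzymes, 2. With the block and length and GC trends removed together, 0 of the 10 enzymes were called (4 at an unadjusted p below 0.05), with log2 fold changes of 0.32 for *Gpx1* and 0.29 for *Gpx4* (adjusted p = 0.0624 and 0.0802). The cause was not tested.

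Calls over all genes numbered 1422 with no filter on low counts, 510 with the GC trend removed, 487 with GC and principal length trends removed, and 127 to 1720 on leaving out 1 library (127 without Rpl22-/- replicate 3, 1720 without Rpl22-/- replicate 1). With library size alone 43.4% of calls were higher, against 58.8% with TMM, and 68.2% with the GC trend removed. The enzymes called numbered 0 to 2 on leaving out 1 library, with 1 without Rpl22-/- replicate 3 and 0 without any 1 of the Rpl22+/+ replicates (2, 2 and 3 at an unadjusted p below 0.05), and 0 with GC and principal length trends removed (*Gpx1* 0.34, *Gpx4* 0.28, and 3 at an unadjusted p below 0.05). DESeq2 and limma-voom called 2. On leaving out 1 library *Gpx1* ran from 0.37 to 0.55 and *Gpx4* from 0.36 to 0.53.

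Directions turned for enzymes near 0. With library size alone *Gclc* was at -0.017, *Gclm* at -0.031 and *Txnrd1* at -0.015. With the principal length trend removed *Gclm* was at -0.071, and with GC and principal length trends removed *Txnrd1* was at -0.0016. On leaving out 1 library *Gclc* ran from -0.038 to 0.062, *Gclm* from -0.050 to 0.086, *Gsr* from -0.013 to 0.204 and *Txnrd1* from -0.011 to 0.072, while the log2 ratio of *Gclm* to *Gclc* ran from -0.11 to 0.13 and that of *Txnrd1* to *Gsr* from -0.17 to 0.0041.

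Over the related lists, calls numbered 10 with DESeq2, 2 with the GC trend removed, 3 with the block and both trends, 3 with the principal length trend removed, 0 with GC and principal length (32 at an unadjusted p below 0.05) and 0 to 19 on leaving out 1 library. The median log2 fold change, 0.075 as reported, was 0.031 with library size alone, 0.027 with the length trend removed, 0.024 with the block and both trends, 0.031 with principal length, 0.028 with GC and principal length, and 0.022 to 0.094 on leaving out 1 library. The depth of the shallowest library, 9321123 counts on genes, and 3 libraries per genotype limit what differences could be detected.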
